A study of Homo sapiens with 2 samples.

Results

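The 10 genes described here encode transcription factors of the B lineage, namely PAX5, EBF1, IKZF1, IKZF2, IKZF3, FOXO1, LEF1, BACH2, IRF4 and IRF8. They were listed by symbol and matched to gene IDs. All 10 were found among the 57773 genes counted, and all 10 passed the minimum for comparison, 10 reads in either library, as did 19145 genes in all. Their RNA was sequenced from REH and 697, established human lines of B-cell precursor leukemia (BCP-ALL), and each line gave 1 library. The ETV6/RUNX1 fusion is present in REH, which lacks an intact ETV6 allele, and is absent from 697. Both lines carry the label B-ALL, were kept in serum-supplemented RPMI medium and received no agent. Each line is a single established culture, so the values describe these libraries, and the spread between cultures is unknown. Libraries differed in line and in fusion status at once, and these cannot be told apart.

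B cells arise through an ordered set of transcription factors. EBF1 and PAX5 commit progenitors to the lineage, FOXO1 supports recombination of the immunoglobulin genes, and the zinc finger proteins of the Ikaros family end the proliferation of precursors. IRF4 and IRF8 act at the pre-B stage, BACH2 holds back plasma cell differentiation, and LEF1 is a factor of early B and T precursors that also relays Wnt signals. Loss or alteration of PAX5, EBF1 and IKZF1 is well known in BCP-ALL.

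Of the reads, 45188375 fell in genes in REH and 41097497 in 697. Levels are given as CPM, the read count normalised to library size after TMM scaling (the trimmed mean of M-values). Log2 ratios set REH over 697, with 0.5 reads added on both sides. Each range beside a level or ratio is a 95% counting interval and covers counting error only. Genes whose log2 ratio reached 2 in either direction were called. The median log2 ratio over all genes was 0.05, and without TMM scaling it was 0.36, so that leaving out the scaling raised every ratio by 0.31. Markers of the B lineage summed to 1533 CPM in REH and 1196 CPM in 697, with 6 of 7 found in the files. These sums hide differences in both directions, with 2 markers called higher in REH and 1 in 697. MS4A1 had 670 and 19 reads, CD79B 24198 and 4443, and VPREB1 3 and 10039. Of 6 T lineage markers, 4 had 0 reads in REH and 4 had 0 reads in 697, and these were not all the same genes. CD3E had 45 and 0 reads and CD8A 0 and 10, and the list summed to 0.935 and 0.298 CPM. Of 6 myeloid markers, summing to 253 CPM in REH and 2.27 CPM in 697, MPO (12643 and 12 reads) made up nearly all of the sum in REH. CSF1R, the most abundant of them in 697, had 30 and 61 reads, while ELANE had 0 reads in both and LYZ had 1 and 2. The part of MPO-expressing cells in the results below was not tested. In such bulk samples, fewer cells of a type and less RNA per cell cannot be told apart.

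Upstream sequence was read for the members from RefSeq (GRCh38.p14), as the 250 bases before each annotated start, since the lines differ in a RUNX1 fusion and RUNX proteins bind the letters TGTGGT. Of the members, 9 had at least 1 window (13 windows in all), and IKZF3 had no entry. TGTGGT, searched on both strands, was found in 4 of these 13 windows, those of IKZF1, IKZF2, IRF8 and LEF1, against 11.0% of 35116 windows of all genes. At the level of genes this was 4 of 9 members, against 13.2% of 27305 genes. Of these 4, IKZF2 and IRF8 were called higher in 697, LEF1 (log2 ratio -0.83) lay on the same side and IKZF1 (0.72) on that of REH, the latter pair not called. Only IKZF2 held 2 matches in 1 window, as did 0.971% of all windows. Its window lies at chr2:213152457-213152706 on the minus strand, upstream of the gene and inside the exon of a lncRNA on the other strand. Those of FOXO1, the member with the largest ratio toward REH, at chr13:40666642-40666891 (minus strand), and of PAX5, at chr9:37034269-37034518 (minus strand), are shown beside it as windows with no match. Both lie directly upstream of the gene. Capitals mark TGTGGT, and the sequences run 5′ to 3′.
IKZF2: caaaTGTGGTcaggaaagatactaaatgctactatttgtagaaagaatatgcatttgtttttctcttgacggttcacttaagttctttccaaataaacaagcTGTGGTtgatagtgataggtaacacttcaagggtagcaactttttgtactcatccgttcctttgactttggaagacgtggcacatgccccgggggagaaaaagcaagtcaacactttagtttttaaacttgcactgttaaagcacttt
FOXO1: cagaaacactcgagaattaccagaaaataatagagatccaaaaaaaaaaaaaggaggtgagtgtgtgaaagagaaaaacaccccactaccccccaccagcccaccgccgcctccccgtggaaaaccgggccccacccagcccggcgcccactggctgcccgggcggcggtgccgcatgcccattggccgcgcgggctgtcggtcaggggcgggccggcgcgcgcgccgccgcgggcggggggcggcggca
PAX5: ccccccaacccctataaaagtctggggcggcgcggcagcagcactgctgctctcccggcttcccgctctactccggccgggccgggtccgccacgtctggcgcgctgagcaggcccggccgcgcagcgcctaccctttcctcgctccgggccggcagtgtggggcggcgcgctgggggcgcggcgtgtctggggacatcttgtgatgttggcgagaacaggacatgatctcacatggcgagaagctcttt
The windows of IRF8, LEF1 and IKZF1 that held a match start inside the genes as GENCODE 44 draws them, and for these the 30 bases around the match are given, at chr16:85902684-85902713 (plus strand), chr4:108166341-108166370 (minus strand) and chr7:50308544-50308573 (plus strand). By that annotation, exons of the gene cover all 250 bases of the LEF1 window, 141 of the IRF8 window and 20 of the IKZF1 window. Of the 30 bases shown, 30 are exonic in LEF1, 25 in IRF8 and 0 in IKZF1. In IKZF1 the match is on the other strand, so the bases shown read ACCACA.
IRF8: ggagctgttcacTGTGGTtgtatctgcctg
LEF1: aaaaagaaagtgTGTGGTtttgagggcggg
IKZF1: gcacccttttccACCACAagcctgacaaat
The IKZF2 matches began 246 and 148 bases before the start, and those of IRF8, LEF1 and IKZF1 began 134, 57 and 144 bases before it. The GC content was 38.0% in the IKZF2 window, 67.2% in that of FOXO1 and 69.6% in that of PAX5, against a median of 58% over all windows. With TGCGGT added, the number of members' windows with a RUNX match stayed at 4, against 16.3% of all windows. The ETS letters CCGGAA occurred in 1 of 13 windows (14.5% of all windows), the E-box letters CAGCTG or CAGGTG in 3 (28.7%) and the GATA letters AGATAA in 1 (9.17%), each on both strands. A match describes letters in these windows, and binding was not measured.

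Of the 10 factors, 6 differed by less than 2-fold between the libraries, while IKZF2, IKZF3 and IRF8 were at lower levels in REH. A difference of 2-fold or more was reached by 4 of 10 members and by 39.8% of all genes, so these shares were alike. At the threshold of 2, 0 of 10 members were higher in REH, where 12.5% of all genes were, and 3 of 10 were higher in 697, where 8.15% of all genes were. At a threshold of 1, 1 member was higher in REH (22.4% of all genes) and 3 were higher in 697 (17.4% of all genes). The median log2 ratio of the members was -0.51, with 4 above 0 and 6 below, and the range ran from -4.99 for IKZF3 to 1.34 for FOXO1. All 10 counting intervals excluded 0, which at this depth holds also for ratios as small as that of BACH2.

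**Figure D1:**
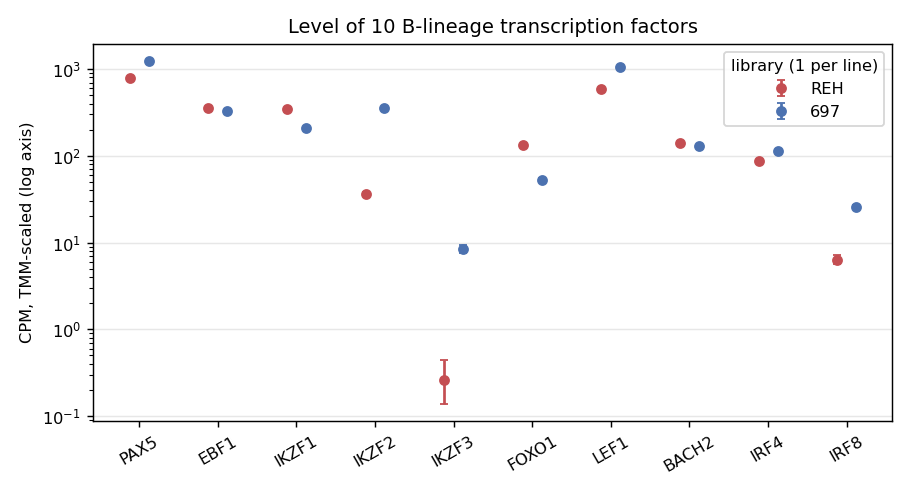
Level of each of the 10 factors in CPM after TMM scaling (log axis), with REH in red and 697 in blue, 1 library each, and bars giving the 95% counting interval. The points of EBF1 and BACH2 nearly coincide, while those of IKZF2, IKZF3 and IRF8 are far apart with 697 on top.

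PAX5, the factor that maintains B-cell identity, had 39793 reads in REH and 45212 in 697. These correspond to 792 CPM (784 to 799) and 1224 CPM (1212 to 1235), a log2 ratio of -0.63 (-0.65 to -0.61), or 1.55-fold more in 697. PAX5 (ENSG00000196092) lies on chromosome 9 from 36833269 to 37034268 (GRCh38, minus strand). Among protein-coding genes, PAX5 ranked at percentile 98.3 in REH and 98.4 in 697 by level per kb of exon, so it was among the highest in both lines.

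EBF1, which opens the B-cell program and activates PAX5, had 18041 reads in REH and 12116 in 697. Its level was 359 CPM (354 to 364) in REH and 328 CPM (322 to 334) in 697, with a log2 ratio of 0.13 (0.10 to 0.16). The gene (ENSG00000164330) lies on chromosome 5 from 158695920 to 159099916. Within a library, where no scaling enters, the reads of PAX5 over those of EBF1 stood at 2.21 in REH and 3.73 in 697, a log2 difference of -0.76 (-0.80 to -0.72). The balance of these factors therefore differed by 1.69-fold, with relatively more PAX5 in 697. LINC02202, a lncRNA that starts beside EBF1 on the other strand, had 644 and 425 reads and a log2 ratio of 0.15 (-0.02 to 0.34), and this interval includes the ratio of EBF1.

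IKZF1 encodes Ikaros, a zinc finger protein that represses genes of cycling precursors. It had 17298 reads in REH and 7701 in 697, or 344 CPM (339 to 349) and 208 CPM (204 to 213). The log2 ratio was 0.72 (0.68 to 0.76), 1.65-fold more in REH. IKZF1 (ENSG00000185811) lies on chromosome 7 from 50304068 to 50405101. The counts are per gene and do not separate its splice forms.

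IKZF2 encodes Helios, best known from T cells. It had 1820 reads in REH and 13192 in 697, or 36.2 CPM (34.6 to 37.9) and 357 CPM (351 to 363). The level was 9.86-fold higher in 697 (9.39 to 10.4), a log2 ratio of -3.30 (-3.37 to -3.23), and 12.8% of all genes had a larger ratio in either direction. IKZF2 (ENSG00000030419) lies on chromosome 2 from 212999691 to 213152427. Genes that overlap it were at low counts, with 4 and 24 reads for ENSG00000273118 on the same strand and 70 and 110 reads for ENSG00000270659, the lncRNA across its start on the other strand (log2 ratio -1.09, -1.55 to -0.65).

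IKZF3 encodes Aiolos, which appears later in the B lineage than Ikaros. It had 13 reads in REH and 314 in 697, or 0.259 CPM (0.138 to 0.442) and 8.50 CPM (7.58 to 9.49). This was the largest ratio among the members, 31.7-fold (18.9 to 62.4) higher in 697, with a log2 ratio of -4.99 (-5.96 to -4.24). The REH count stood above the 3 reads, or 0.0597 CPM, taken as the smallest level the depth can show. The level was low in 697 too, at percentile 25 of protein-coding genes per kb of exon, against 3.49 in REH. IKZF3 (ENSG00000161405) lies on chromosome 17 from 39757718 to 39864312.

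**Figure D2:**
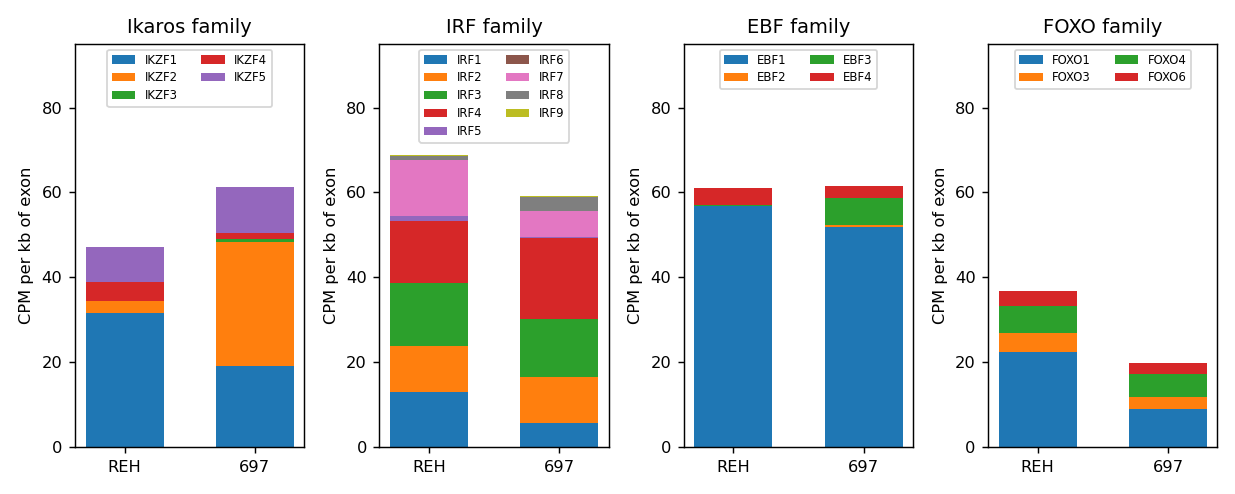
Level per kb of exon of the genes of the Ikaros, IRF, EBF and FOXO families, stacked by gene, in REH and 697 (1 library each, no error shown). IKZF2 in orange fills little of the Ikaros bar in REH and the largest share of it in 697, and FOXO1 in blue makes up most of the FOXO bar in REH.

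Within the Ikaros family, the dominant member differed between the lines. By level per kb of exon, IKZF1 made up 66.8% of the summed family in REH and 31.1% in 697, and IKZF2 6.27% and 47.6%. Thus IKZF1 stood at 10.7 times IKZF2 in REH and at 0.654 times IKZF2 in 697. When the length of the main transcript (MANE Select) was used instead, these values were 14.5 and 0.892. The change between the lines does not depend on length or scaling and was 16.3-fold, a log2 difference of 4.02 (3.94 to 4.11). IKZF4, or Eos, had 1488 and 329 reads (log2 ratio 1.73, 1.56 to 1.91), and IKZF5, or Pegasus, 2065 and 1989 reads (log2 ratio -0.39, -0.48 to -0.30). IKZF5 kept a like share of the family, 17.7% and 17.8%.

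FOXO1, the forkhead factor that drives RAG gene expression in pro-B cells, was the only member past a log2 ratio of 1 toward REH. It had 6728 reads in REH and 1953 in 697, or 134 CPM (131 to 137) and 52.9 CPM (50.5 to 55.3). The log2 ratio was 1.34 (1.27 to 1.41), 2.53-fold more in REH. FOXO1 (ENSG00000150907) lies on chromosome 13 from 40555667 to 40666641. The other FOXO genes measured had ratios in the same direction but smaller, between 0.29 for FOXO4 and 0.55 for FOXO3. The ratio of FOXO1 to FOXO3 reads within a library differed by 0.79 on the log2 scale (0.65 to 0.93). FOXO1 accordingly made up 61.3% of the family per kb in REH and 44.9% in 697.

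LEF1 was the member with the highest level per kb of exon in both libraries, at 111 and 197 CPM per kb. It had 29884 reads in REH and 38926 in 697, or 595 CPM (588 to 601) and 1054 CPM (1043 to 1064), with a log2 ratio of -0.83 (-0.85 to -0.80). LEF1 (ENSG00000138795) lies on chromosome 4 from 108047545 to 108168956. TCF7, its close relative in T cell precursors, went the other way, with 477 reads in REH but 6 in 697 (5.75, 4.74 to 7.32). The log2 difference between LEF1 and TCF7 across the lines was -6.58 (-7.70 to -5.46), although LEF1 made up 94.8% of the family per kb in REH and 97.4% in 697. The antisense gene LEF1-AS1 had 537 and 704 reads and a log2 ratio of -0.83 (-1.0 to -0.67). The libraries hold no strand information, so reads of LEF1 and of this gene cannot be told apart where they overlap. When reads were split by strand, 7.31% more reads were assigned to LEF1 in REH and 7.76% more in 697, and its log2 ratio was -0.80 in the first strand column and -0.83 in the second.

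BACH2, a repressor that holds back the plasma cell program, had 7152 reads in REH and 4833 in 697. Its level of 142 CPM (139 to 146) in REH and 131 CPM (127 to 135) in 697 gave a log2 ratio of 0.12 (0.07 to 0.17), the ratio nearest to 0 among the members. BACH2 (ENSG00000112182) lies on chromosome 6 from 89926528 to 90296843. BACH1, its relative, had 3379 and 2200 reads. The reads of BACH2 over BACH1 were 2.12 in REH and 2.20 in 697, a log2 difference of -0.05 with an interval of -0.15 to 0.04. Splitting reads by strand added 6.33% and 5.55% to BACH2, and 1.49% and 1.34% to PAX5, and it added 0 to the 7 members other than these and LEF1. The lncRNAs that overlap BACH2 had 14 and 9 reads (ENSG00000226455) and 20 and 5 (ENSG00000260271), and ENSG00000258885, a lncRNA inside PAX5, had 22 in each library, far below the counts of these factors.

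IRF4 and IRF8 are related factors of the interferon regulatory family that act together in pre-B cells and apart later on. IRF4 had 4388 reads in REH and 4212 in 697, or 87.3 CPM (84.7 to 89.9) and 114 CPM (111 to 117), with a log2 ratio of -0.39 (-0.45 to -0.32). IRF8 had 320 reads in REH and 953 in 697, or 6.37 CPM (5.69 to 7.10) and 25.8 CPM (24.2 to 27.5). Its log2 ratio of -2.02 (-2.21 to -1.83) met the threshold, but the interval spans it and the ratio was -1.71 without TMM scaling. IRF4 (ENSG00000137265) lies on chromosome 6 from 391739 to 411443, and IRF8 (ENSG00000140968) on chromosome 16 from 85899116 to 85922606. The reads of IRF4 over IRF8 stood at 13.7 in REH and 4.42 in 697, a log2 difference of 1.63 (1.44 to 1.82). IRF4 was thus more abundant than IRF8 in both lines, and more so in REH. Of the other IRF genes, IRF5 had 426 and 15 reads (log2 ratio 4.34, 3.65 to 5.23), and IRF1 had 8031 and 2533 (1.22, 1.16 to 1.29).

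**Figure D3:**
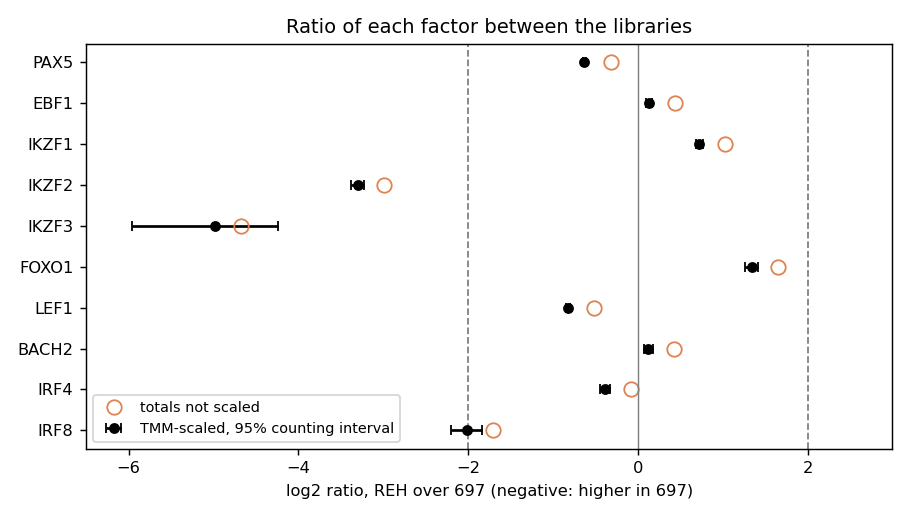
Log2 ratio of each factor, REH over 697, after TMM scaling (black, with the 95% counting interval) and with totals not scaled (open orange). Dashed lines mark the threshold of 2 in size. IKZF2 and IKZF3 lie past it both ways, and IRF8 lies on it when scaled and inside it when not.

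Set in order by level per kb of exon, LEF1, PAX5 and EBF1 came first in both libraries and IRF8 and IKZF3 last by this length. IKZF2 moved from rank 8 in REH to rank 4 in 697, FOXO1 from rank 5 to rank 8, and IKZF1 from rank 4 to rank 6. In 697, IRF4 and IKZF1 were neighbours at 19.1 CPM per kb each and did not differ beyond counting error, but per kb of the main transcript IKZF1 stood higher, at 33.3 against 21.5. The top 10% of protein-coding genes held 4 members in REH and 3 in 697, and 7 and 8 members lay above the median. The length used bears most on IRF8, whose annotated exons sum to 7.85 kb against 2.67 kb for the main transcript. With the latter length the order in REH was the same, whereas in 697 IKZF1 came to rank 5 and IRF8 to rank 8, above FOXO1 (9.67 against 9.15 CPM per kb).

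Beyond the members, 27 paralogues were listed, of which 19 had enough reads. Of these, 2 were called higher in REH (TCF7 and IRF5) and 2 higher in 697, and their median log2 ratio was 0.35. Over all genes, 12.5% were called higher in REH and 8.15% higher in 697, so these counts were near those shares. Both paralogues higher in 697 belong to the EBF family. EBF3 had 90 and 1769 reads (log2 ratio -4.73, -5.06 to -4.44) and EBF2 had 1 and 116 (-6.72, -12.62 to -4.80). EBF1 made up 93.0% of the EBF family per kb in REH and 84.3% in 697, with EBF3 at 0.386% and 10.2%, so that the sum of the family was nearly the same, at 61.1 and 61.6 CPM per kb.

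The genes of the list of other B-cell transcription factors whose levels lay nearest to each member over both libraries, by Euclidean distance of log2 CPM, were taken from the 59 with enough reads. MYB, a factor of progenitor growth, was nearest to both PAX5 (distance 0.28) and LEF1 (0.19). EBF1 lay nearest to ELF1 (0.14), IKZF1 to MEF2D (0.21), BACH2 to ETS1 (0.21), FOXO1 to BCL11A (0.32), IRF4 to KLF13 (0.41) and IRF8 to MYBL1 (0.27). For IKZF2 the nearest was NFKB1 (0.44), with 2217 and 10470 reads, and for IKZF3 it was TOX (1.48), with 34 and 553. The next nearest were TCF3 and RUNX1 for both PAX5 and LEF1, ELF1 and ERG for IKZF1, SOX4 and MEF2D for EBF1, NR3C1 and STAT5B for IKZF2, and GATA3 and PRDM1 for IKZF3. They were FOXP1 and KLF13 for BACH2, GFI1 and BCL6 for FOXO1, TCF19 and LMO4 for IRF4, and RELB and NFATC1 for IRF8, the latter pair at distances of 1.61 and 1.89. With only these 2 libraries, this likeness is a matter of level and ratio alone. Of the same 59 genes, 4 were called higher in REH (12.5% of all genes) and 6 higher in 697 (8.15% of all genes). Those higher in REH were SPI1, AFF3, HHEX and HOXA9, the last with 280 and 0 reads. Among those higher in 697 were TOX and NFKB1 as above, GATA3 (41 and 203 reads), PRDM1 (48 and 200) and CEBPA (0 and 29).

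The levels of genes that the factors are known to control were then set beside those of the factors. Lists were drawn from textbook knowledge, several are short and some genes belong to more than 1 list, and counts exclude the members. The counts called stand beside 12.5% of all genes called higher in REH and 8.15% higher in 697. Of 12 compared genes activated by PAX5, 4 were called higher in REH and 0 in 697, with a median log2 ratio of 0.73, while PAX5 itself stood at -0.63. CIITA, the master regulator of MHC class II genes, had 36029 and 5601 reads (2.24, 2.20 to 2.28), and it was followed by FCRLA (293 and 2 reads), FCER2 (110 and 5) and BST1 (124 and 12), which were at low counts. In the other direction, though not called, lay BLNK (-1.21), CD22 (-0.73) and VPREB3 (-0.23). Among the members that this list also holds, IKZF3 and IRF8 were called higher in 697, and LEF1 (-0.83) and EBF1 (0.13) were not called.

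Of 10 compared genes repressed by PAX5, 3 were called higher in REH and 2 in 697, with a median of 0.61. The largest were opposite in direction, with SDC1, a plasma cell surface protein, at 2677 and 3 reads (log2 ratio 9.14, 7.81 to 11.64), and JCHAIN, the joining chain of secreted antibodies, at 4 and 8797 (-11.38, -13.42 to -10.19). Also called higher in REH, but at low counts, were CD33 with 22 and 1 reads (3.46, 1.39 to 9.38) and CD28 with 10 and 1 (2.36, 0.06 to 8.32). NOTCH1 (1.86) and FLT3 (0.08) were not called.

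Of 10 compared genes activated by EBF1, 2 were called higher in REH and 1 in 697. Their ratios ran from -11.93 to 6.43, with 5 above 0 and 5 below and a median of -0.07. Most of these genes encode parts of the pre-B-cell receptor and its signalling. CD79B, a receptor subunit, had 24198 and 4443 reads (2.001, 1.95 to 2.05), a ratio on the threshold, and CD79A had 32911 and 10614 (1.19). FCRLA, in this list too, was the other gene called higher in REH. VPREB1, part of the surrogate light chain, had 3 and 10039 reads (-11.93, -14.43 to -10.60), whereas IGLL1, the other part, had 14635 and 18608 (-0.79, -0.82 to -0.76).

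Of 12 genes activated by FOXO1, 0 were called higher in REH and 2 higher in 697, with a median of -0.42, while FOXO1 was higher in REH. RAG1, the recombinase subunit, had 77158 and 21317 reads (1.41, 1.39 to 1.43), close to the 1.34 of FOXO1 but likewise not called. RAG2 had 7773 and 7022 (-0.30), and many reads over it were ambiguous in the counts used. Splitting by strand gave 97.6% more reads in REH and 40.5% more in 697 and a ratio of 0.17 and 0.26. These added reads cannot be told apart from those of an overlapping gene. IL7R, the interleukin-7 receptor, had 24832 and 27282 reads (-0.58, -0.60 to -0.56). CCR7, a homing receptor, was called higher in 697 with 395 and 1393 reads (-2.26, -2.43 to -2.10), as was S1PR1 with 0 and 68. With 3 reads set in REH, S1PR1 was 30.8-fold higher in 697 (counting interval from 24.4-fold).

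The 4 genes of precursor cells repressed by Ikaros and Aiolos were all below 0, with a median of -1.43, and 1 of them, VPREB1, was called. MYC had 12286 and 26677 reads (-1.56, -1.59 to -1.53) and CCND3, the cyclin of pre-B cells, 26371 and 47607 (-1.30, -1.32 to -1.27). These lay on the 697 side, as did IKZF2 and IKZF3, and opposite to IKZF1. The median over all genes was 0.05, and VPREB1 and IGLL1 belong to the list of EBF1 too. Whether the Ikaros factors bear on these levels was not tested.

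The genes of the Wnt pathway activated by LEF1 and TCF factors were on the REH side, opposite to LEF1. Of 6 compared, 5 were called higher in REH and 0 in 697, with a median of 4.47. LGR5, a receptor that acts in the pathway, had 1036 and 0 reads. With 3 reads set in 697, LGR5 was 254-fold higher in REH (counting interval from 206-fold). AXIN2, an inhibitor of the pathway, had 402 and 68 (2.11, 1.75 to 2.51). TCF7, described above, is a list gene too. RNF43 had 2104 and 18 reads (6.39) and CCND1 105 and 8, with reads shared by overlapping genes left out. In 697 the first strand column held 201 reads for RNF43 and 14 for CCND1. The libraries hold no strand information, so the added reads may belong to an overlapping gene, and the true counts are unknown. By strand column, 4 of 6 genes were called and the median was 2.42 and 2.45, with RNF43 at 2.74 and 2.76 and CCND1 at 1.93 and 1.54.

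Of 4 compared genes activated by IRF4 and IRF8, 1 (CIITA) was called higher in REH and 1 (PRDM1) higher in 697, and of 5 genes repressed by BACH2, 1 and 2 were. PRDM1, the plasma cell factor that BACH2 represses, had 48 and 200 reads (-2.49, -2.99 to -2.04), and CDKN2A had 0 and 112. With 3 reads set in REH, CDKN2A was 50.8-fold higher in 697 (counting interval from 40.6-fold). The other called gene, HMOX1, had 31 and 4 reads (2.36, 1.01 to 4.47).

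**Figure D4:**
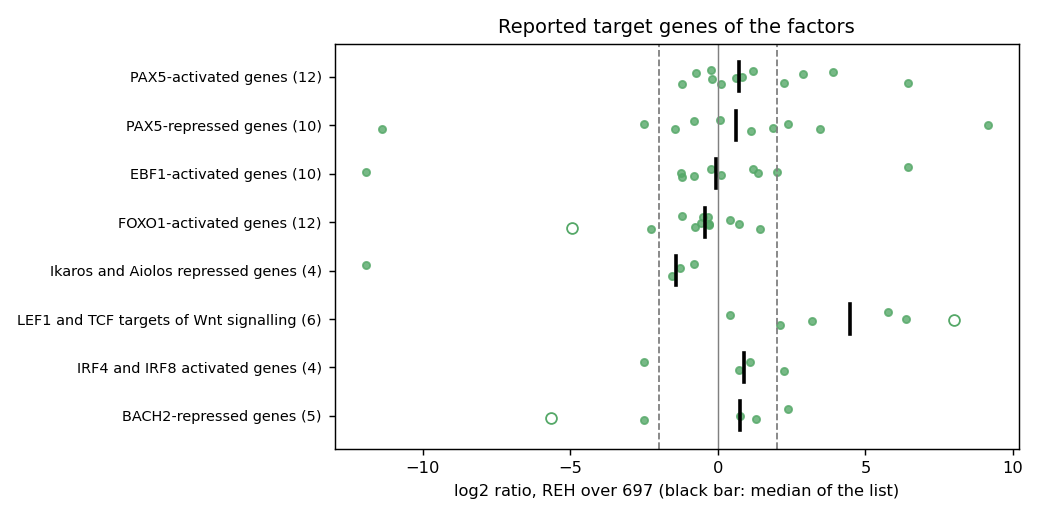
Log2 ratio, REH over 697, of compared genes known to be controlled by the factors, by list, with the number of genes in parentheses (members left out). Open points had 0 reads in 1 library and are drawn with 3 reads there, bars give medians and dashed lines the threshold of 2. The Wnt list lies to the right and the Ikaros and Aiolos list to the left of 0.

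Protein-coding genes near each member were examined to see whether a ratio was shared along the chromosome. Around BACH2 it was not. The 12 compared genes within 1 Mb all had higher ratios than BACH2, from 0.61 to 5.70, with a median of 1.21, among them UBE2J1 (22409 and 7534 reads) and MAP3K7 (5129 and 1472). The median stayed at 1.29 over 26 genes within 5 Mb. BACH2 at 0.12 thus stood apart from a stretch of chromosome 6 on which its neighbours were higher in REH.

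IRF8 and IKZF3 lay below most or all of their neighbours. Only 8.15% of all genes had a log2 ratio of -2 or lower, so most genes anywhere lay above these members and above IKZF2. These counts alone therefore do not set them apart from genes elsewhere. Around IRF8 the median of 12 genes was 0.78, and 11 of them lay above it, with C16orf74 (-2.57) as the exception. The median was 0.82 over 81 genes within 5 Mb. All 34 genes near IKZF3 lay above it, with a median of 0.18. FOXO1 lay above 10 of 11 neighbours, whose median was 0.26, where 22.4% of all genes had a log2 ratio of 1 or more. IKZF2 had a single compared neighbour, SPAG16, with 945 and 1 reads (8.86), while all 23 genes within 5 Mb lay above IKZF2 and had a median of -0.27. For PAX5, EBF1 and IRF4 the medians within 1 Mb were -0.07, 0.21 and -0.35. Those of IKZF1, at -0.53 over 5 genes, and of LEF1, at 0.63 over 7, had the opposite sign to the factor. Within 5 Mb these became 0.11 over 10 genes near IKZF1 and 0.06 over 34 near LEF1, and the medians near PAX5 (0.13) and FOXO1 (-0.03) turned sign as well. Copy number was not measured.

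**Figure D5:**
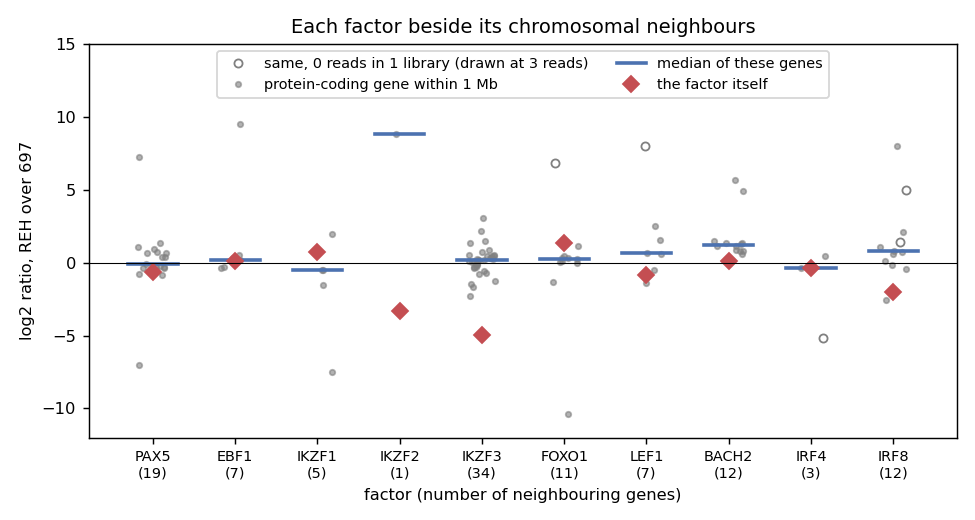
Log2 ratio, REH over 697, of each factor (red diamond) and of the compared protein-coding genes within 1 Mb of it (grey), with their median in blue and their number under each name. Open points had 0 reads in 1 library and are drawn with 3 reads there. The neighbours of BACH2 all lie above BACH2 and above 0.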

How the data were processed

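RNA-seq of REH and 697, 1 library each, was used. The authors deposited unnormalized counts per gene from STAR, for either strand and for each strand. The labels name build hg19 and ribodepleted stranded RNA, whereas the methods of the study name hg38 and poly(A) purification, and the annotation release is not given in the sources used here. Strand totals were equal (50.1% and 50.2% on the first strand), so counts of either strand were used, in which reads shared by overlapping genes are left out. Symbols, lengths and positions came from GENCODE 44 (GRCh38) by gene ID, of which 51996 of 57773 matched.

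The minimum for comparison was 10 reads in either library. Totals were TMM-scaled in edgeR 4.0.16 (R 4.3.3), with factors of 1.11 for REH and 0.899 for 697. Log2 ratios used 0.5 added reads, with exact Clopper-Pearson intervals, levels used exact Poisson intervals, and differences of ratios within a library used normal intervals of log counts. With 1 library per line there is no test and no p-value. For a gene at 0 reads in a library, a fold was computed against 3 reads there, and the counting interval can reach below it. The code was tested on simulated data. Members and gene lists were chosen with earlier results of these data known. All members were named, together with paralogues, overlapping genes above the minimum, the best-known targets, and up to 4 genes per list and direction that were called and had 100 reads or more. HMOX1, CD28, CD33 among the genes repressed by PAX5, and the named neighbouring genes were chosen after their values were seen. CD24 was not used here, and some list genes are not reported individually. Alternatives were size factors from DESeq2 1.42.0, totals as counted, TMM over protein-coding genes, 5 added reads, each strand column, a threshold of 1, and minima of 1 and 50 reads. Scripts ran under Python 3.11.15 (scipy 1.17.1, pandas 2.3.3, numpy 2.4.6; figures by matplotlib 3.10.9).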

Additional observations from a re-analysis of the deposited data

How the results depend on the processing

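Each of the 10 members kept the sign of its log2 ratio in all 8 alternatives, which were DESeq2 size factors, totals without scaling, TMM over protein-coding genes, 5 added reads, each strand column, and minima of 1 and 50 reads. IKZF2 (-3.33 to -2.99) and IKZF3 (-5.02 to -4.59) stayed past the threshold throughout. IRF8 fell short of it with unscaled totals (-1.71), in the first strand column (-1.84) and with a minimum of 50 reads. IKZF1 reached 1.03 and IRF4 -0.08 with unscaled totals, and the median of the genes in the context lists then rose from 0.09 to 0.40. At a threshold of 1, 1 member (FOXO1) was higher in REH, and 34 and 30 context genes were higher in REH and 697, against 19 and 13 at a threshold of 2. With 5 reads added, the latter were 15 and 13. Over all genes the shares were 22.4% and 17.4% at a threshold of 1 and 12.5% and 8.15% at 2. The total of context genes is not reported here, so their counts were not compared with these shares. The length of the main transcript and the window of 5 Mb were chosen after seeing the data, and with the former the log2 of IRF4 over IRF8 per kb was 2.78 in REH and 1.15 in 697. Depth limits IKZF3 in REH most. No paired analysis was possible because only 1 library was made per line, and without either library no comparison remains.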
